A study of Homo sapiens with 38 samples.

Results

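The genes described here are 53 genes of the long arm of chromosome 22 that are expressed in prostate epithelial cells, out of 60252 rows in each expression table and 14687 genes that passed a filter on low values, called tested below, in the C4-2B cell line. They were taken by name, as rows whose Ensembl identifier carries 1 of 53 symbols, and all 53 were found and all 53 passed this filter in both cell lines. The names were chosen by the TPM of the C4-2B lines, with the low values of the deletion line called ld9 in view. The C4-2B differences are therefore given as a description, with no test, and nothing is supported with them. The choice set no numeric threshold, so no gene lay just inside or outside one. Another 296 genes of chromosome 22 were tested in C4-2B and are set beside the members.

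The study asked what a region of prostate cancer risk at 7p15.2, on another chromosome, does to the HOXA13 gene and to the transcriptome. RNA-seq was made from 36 libraries, with 18 from RWPE-1, an immortalized line of normal prostate epithelium, and 18 from C4-2B, a prostate cancer line derived from LNCaP. RWPE-1 gave 7 libraries of genome-edited cells labelled as deleted for the region and 5 of genome-edited controls labelled wild type. It also gave 3 libraries of cells with a HOXA13 expression vector and 3 with the matching eGFP plasmid, taken 48 hours after transfection from the 10% of cells with the highest eGFP. C4-2B gave 3 libraries from each of 3 deletion lines, named m, le5 and ld9, and 3 from each of 3 control lines. Per the labels C4-2B is tetraploid, so the deletion needed repeated rounds of editing. In the second, 2 colonies from the first were edited again with another guide pair, selected in puromycin and seeded as single cells, and 3 clones carried the full deletion. Each deletion line is thus 1 clone, some share a parent colony, and the labels do not say which. The labels do not say how the C4-2B control lines were derived, and they do not name separate clones or cultures for the libraries of RWPE-1. Chromosome copy number was not measured in the data used here.

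Chromosome 22 is one of the smallest human chromosomes and is dense in genes, most of them on its long arm. Its genes serve unrelated tasks, from splicing and translation to chromatin, membrane traffic and mitochondrial import. When a whole chromosome is gained or lost, the RNA of its genes tends to follow the number of copies, with some genes following it less closely than others, which is called buffering. Several genes of this chromosome are known tumour suppressors, among them NF2, CHEK2 and SMARCB1.

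The libraries carried the labelled identity of their cell lines. All 10 luminal prostate markers averaged at least 1 TPM in C4-2B, and their sum ran from 2201 to 6872 TPM over its libraries. All 7 basal markers did so in RWPE-1, with sums of 7093 to 17223 TPM, against 4.10 to 8.53 TPM in C4-2B. The luminal markers were not absent from RWPE-1, where 5 of the 10 averaged at least 1 TPM and the sums were 330 to 1228 TPM. The luminal sums of le5 and ld9, 5063 to 6090 TPM, lay within the range of the other C4-2B libraries. Neuroendocrine, fibroblast and endothelial, and immune markers summed to at most 13.1, 2.70 and 4.77 TPM in C4-2B and 22.7, 1.21 and 203 TPM in RWPE-1. HOXA13 averaged 1.16 ± 0.709 TPM in RWPE-1 controls (SD, n = 5), 8.03 ± 1.63 TPM in RWPE-1 deletion libraries (SD, n = 7), 2.67 ± 1.01 TPM with eGFP and 748 ± 83.5 TPM with the HOXA13 vector (SD, n = 3 each). It stayed between 0.76 and 1.99 TPM in every C4-2B library. Library 1 of C4-2B control line 3 stood apart: mitochondrially encoded genes took 28.4% of its TPM, against 10.8% to 16.6% in the other 17 C4-2B libraries. TPM is a share corrected for transcript length, so read depth is unknown and no counting interval is given.

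To follow chromosome 22 apart from the rest of the transcriptome, each member's log2(TPM + 1) was compared with the mean of the 3 control lines. The median of the same difference over 12755 tested genes of other chromosomes was then subtracted. This relative difference is negative where a chromosome 22 gene is lower than genes elsewhere are. In RWPE-1 each control library was compared with the mean of the other 4, and every other library with the mean of the 5 controls.

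Lines le5 and ld9 were low across the members, and line m was not. The members' median relative difference was -0.37, -0.41 and -0.38 in the libraries of ld9 and -0.39, -0.36 and -0.39 in those of le5. It lay between -0.01 and 0.01 in the 3 libraries of m and between -0.00 and 0.07 in 8 of the 9 control libraries. The exception was library 1 of control line 3, at -0.16, the library with the high mitochondrial share. The 6 libraries of le5 and ld9 did not overlap with the other 12. On the mean of each line, the median was -0.40 in le5, which is 75.8% of the control level on this scale, -0.39 in ld9, which is 76.3%, and -0.00 in m. The members' TPM summed to 3591 to 3721 in le5 and ld9, 4784 to 4892 in m and 4807 to 4987 in control lines 1 and 2. Control line 3 held 3864, 4690 and 4761 TPM. The mitochondrial share was 14.4% to 15.8% in le5 and ld9, above the 10.8% to 13.6% of all 9 libraries of control lines 1 and 2 and m, and 15.3%, 16.6% and 28.4% in control line 3. It thus moved with the lowering outside control line 3, and its part in the result was not tested. With the mitochondrially encoded genes left out and the TPM rescaled, the medians were -0.39 in ld9 and -0.40 in le5. Subtracting the median of other chromosomes removes nearly all of such a rescaling. These medians therefore cannot tell what part the mitochondrial share had. Without library 1 of control line 3, left out after the values were seen, they were -0.39 and -0.41.

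**Figure D1:**
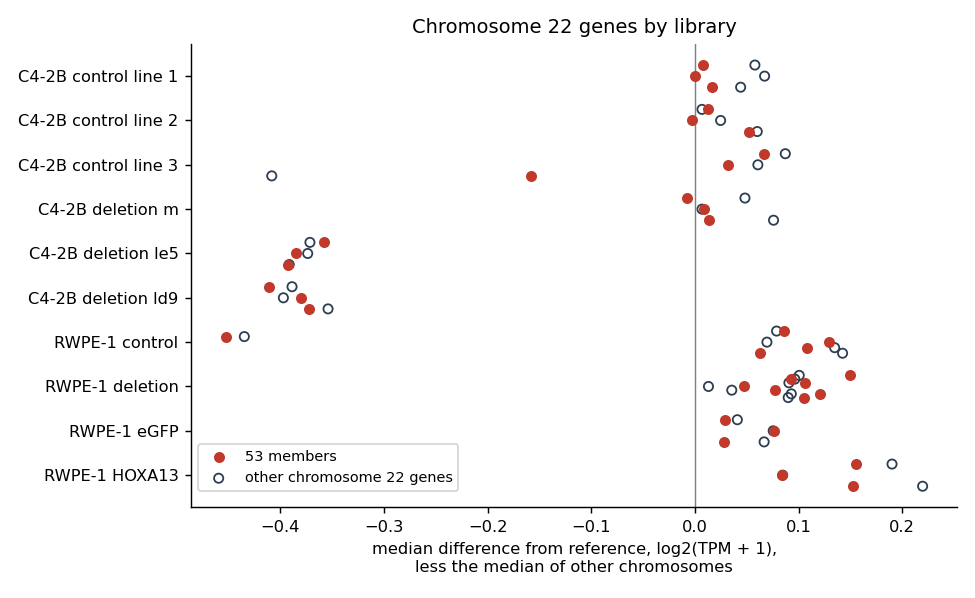
Median relative difference of the 53 members (filled) and of the other tested chromosome 22 genes (open) in each of the 36 RNA-seq libraries, by group, on log2(TPM + 1) with 0 as the median of other chromosomes. The libraries of le5 and ld9 and RWPE-1 control 4 lie near -0.4, library 1 of C4-2B control line 3 lies at -0.41 for the open point, at the level of the lowered lines, and at -0.16 for the filled one, and the rest lie near or above 0.

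The lowering took in the chromosome as a whole. Over the other 296 tested genes of chromosome 22 the median was -0.38 in le5, -0.37 in ld9 and 0.04 in m, close to the values of the members. By library, these other genes lay between -0.40 and -0.35 in le5 and ld9, and library 1 of control line 3 was lower still, at -0.41, so that the lowered lines overlapped with a control library there. The other 11 libraries lay between 0.01 and 0.09. Among 23 chromosomes, chromosome 22 had the lowest median in both lines, at -0.38 in le5 and -0.37 in ld9. In le5 and ld9 every other chromosome lay between -0.05 and 0.10. In m it ranked 19 of 23 from the lowest, at 0.04. Cut into 12 windows of consecutive genes from the centromere side to the end, the medians ran from -0.46 to -0.31 in le5 and from -0.45 to -0.32 in ld9. No window of either line came near 0, whereas the windows of m lay between -0.03 and 0.12. The most proximal members, ATP6V1E1 and BID, and the most distal, PPP6R2 and SBF1, lay in the first and the last of these windows. The windows of control line 3 ran from -0.28 to 0.03.

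**Figure D2:**
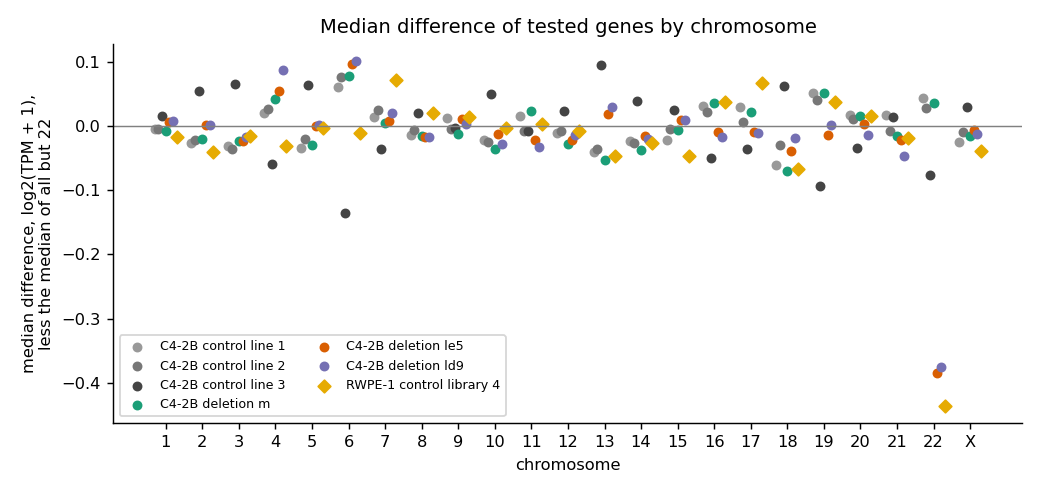
Median difference from the reference of all tested genes by chromosome, for the 6 C4-2B lines and RWPE-1 control 4, on log2(TPM + 1). Chromosome 22 lies at -0.38 in le5, -0.37 in ld9 and -0.44 in RWPE-1 control 4, below every other chromosome of those lines, and near 0 in m and in control lines 1 and 2.

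**Figure D3:**
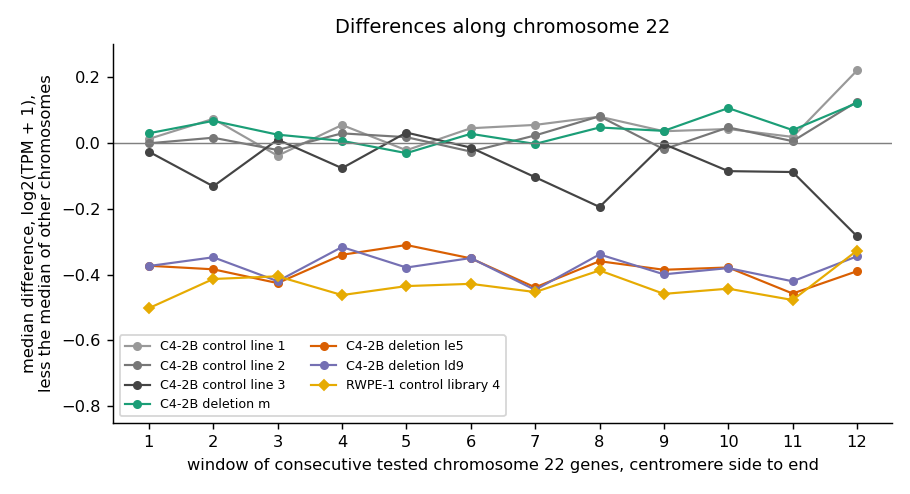
Median relative difference in 12 windows of consecutive tested chromosome 22 genes, from the centromere side (1) to the end (12), for the 6 C4-2B lines and RWPE-1 control 4. The curves of le5, ld9 and RWPE-1 control 4 stay between -0.50 and -0.31 along the whole chromosome.

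Gene by gene, 52 of 53 members were under 0 in both le5 and ld9. With a difference of -0.2 taken as a line for counting, 40 members (75.5%) were below it in both lines, against 11.6% of all tested genes and 212 of 296 other chromosome 22 genes (71.6%). Another 5 members were below it in le5 only, 2 in ld9 only, and 6 in neither. Without library 1 of control line 3, the members below it were 47 in each line, against 45 in le5 and 42 in ld9 with it. In m, 1 member was below it, EIF3D at -0.23. The members' relative differences had a standard deviation of 0.183 in le5 and 0.176 in ld9, against 0.124 in m, 0.120, 0.129 and 0.223 in the control lines. Genes of other chromosomes with a mean of at least 10 TPM spread as 0.221 in le5 and 0.236 in ld9. In m such genes spread as 0.213. The members spread less in each of these lines, but they were chosen by C4-2B TPM, so nothing is read from this. With no cut at 10 TPM, the other 296 chromosome 22 genes spread as 0.263 in le5, 0.250 in ld9 and 0.257 in m. All tested genes of other chromosomes spread as 0.275, 0.283 and 0.260 in the same order. All 6 libraries of le5 and ld9 lay below the other 12 for 9 members, against 0.64% of all tested genes. Without control line 3 they lay below the other 9 for 37 members, against 4.48% of all genes, a count made after the values were seen. The 3 libraries of ld9 alone lay below the other 15 for 1 member, against 0.17% of all genes. Since both lines share their controls, their values are set side by side and no correlation between them is given.

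**Figure D4:**
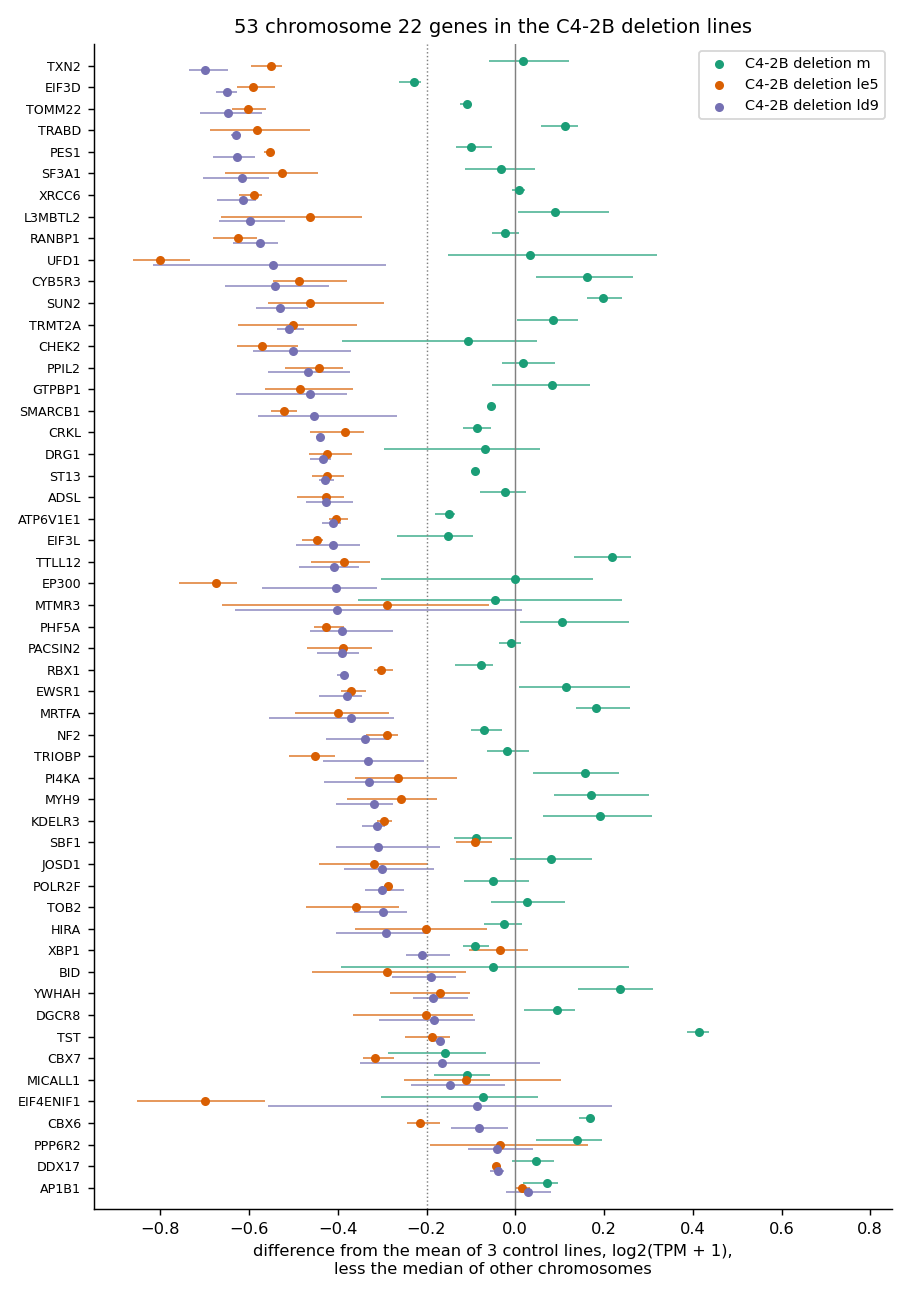
Relative difference of each of the 53 members in the C4-2B deletion lines m, le5 and ld9, ordered by ld9, on log2(TPM + 1). Points are the mean of 3 libraries, bars run from the lowest to the highest library, and the dotted line marks -0.2. Most members lie left of it in le5 and ld9 and around 0 in m, and the lowest rows (AP1B1, DDX17, PPP6R2) lie between -0.04 and 0.14 in all 3 lines.

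Genes of mitochondria and metabolism held the lowest median of the groups in ld9, -0.58, with -0.52 in le5, and had 5 of 6 members below -0.2 in both. TXN2, the mitochondrial thioredoxin, was the lowest of all members in ld9. TXN2 stood at 73.5, 68.9 and 70.4 TPM in ld9 and 79.02, 74.1 and 79.1 TPM in le5. Its libraries held 121, 113 and 111 TPM in m, 115, 122 and 107 TPM in control line 1, 111, 110.1 and 115 TPM in control line 2 and 71.2, 117 and 122 TPM in control line 3. Both lines lay below all the others but library 1 of control line 3, and the relative difference was -0.70 in ld9 and -0.55 in le5. TOMM22, the central receptor of the translocase of the outer mitochondrial membrane, was the most abundant of the group. TOMM22 stood at 113, 124 and 118 TPM in ld9 and 119, 115 and 124 TPM in le5. Its libraries held 163, 169.7 and 173 TPM in m, 201, 188 and 198 TPM in control line 1, 188, 187 and 183 TPM in control line 2 and 97.4, 177 and 178 TPM in control line 3. Its relative difference was -0.65 in ld9 and -0.60 in le5, and again only library 1 of control line 3 lay in or below their range. TRABD, a protein with a TraB domain, differed by -0.63 in ld9 and -0.58 in le5. TRABD stood at 31.7, 31.9 and 31.8 TPM in ld9 and 30.01, 31.5 and 35.4 TPM in le5. Its libraries held 52.1, 51.1 and 54.8 TPM in m, 62.6, 60.7 and 66.5 TPM in control line 1, 58.2, 51.97 and 53.5 TPM in control line 2 and 11.2, 42.1 and 51.8 TPM in control line 3. The same control library held the lowest TRABD value of all 18. CYB5R3, a cytochrome b5 reductase, stood at -0.54 in ld9, and ADSL, adenylosuccinate lyase of purine synthesis, at -0.43. TST, the sulfurtransferase rhodanese, was the exception, at -0.17 in ld9 and -0.19 in le5, and it was the highest member in m, at 0.41. The TST libraries of le5 and ld9 held 26.55 to 28.87 TPM. They lay below every other C4-2B library but library 1 of control line 3, at 7.20 TPM. That library is in the reference, which moves the differences of TST up.

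Translation and ribosome assembly followed, with medians of -0.52 in le5 and -0.45 in ld9, and 5 of 6 members below -0.2 in both. EIF3L and EIF3D encode subunits of the initiation factor eIF3, and EIF3L was the most abundant member in both cell lines. EIF3L stood at 371, 380.4 and 349 TPM in ld9 and 356, 339 and 357 TPM in le5. Its libraries held 388, 449 and 455 TPM in m, 472, 427 and 510.5 TPM in control line 1, 528, 467 and 478 TPM in control line 2 and 456, 403 and 396 TPM in control line 3. All 6 libraries of the lowered lines lay under the other 12, with relative differences of -0.45 and -0.41 in le5 and ld9. EIF3D stood at 188, 193 and 193 TPM in ld9 and 192, 200.4 and 195 TPM in le5. Its libraries held 248, 256 and 250.1 TPM in m, 268, 263 and 268 TPM in control line 1, 295, 284 and 265 TPM in control line 2 and 319.7, 295 and 289.8 TPM in control line 3. EIF3D differed by -0.59 in le5 and -0.65 in ld9, without overlap, and the libraries of m lay between those lines and the controls. PES1, a ribosome assembly factor of the PeBoW complex, was tight within each line. PES1 stood at 57.3, 58.5 and 55.4 TPM in ld9 and 58.7, 58.6 and 59.7 TPM in le5. Its libraries held 81.9, 80.3 and 80.5 TPM in m, 85.96, 84.4 and 82.9 TPM in control line 1, 81.03, 77.2 and 75.99 TPM in control line 2 and 83.1, 88.8 and 90.9 TPM in control line 3. Its relative difference was -0.55 in le5 and -0.63 in ld9, with all 3 libraries of ld9 below those of le5. The GTPases DRG1 and GTPBP1 stood at -0.43 and -0.46 in ld9.

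EIF4ENIF1, which binds the cap-binding protein eIF4E and represses translation, was the member on which the lowered lines differed most. EIF4ENIF1 stood at 23.9, 26.4 and 15.2 TPM in ld9 and 14.8, 11.7 and 13.6 TPM in le5. Its libraries held 22.1, 23.2 and 18.1 TPM in m, 31.7, 23.1 and 21.6 TPM in control line 1, 20.6, 16.3 and 17.8 TPM in control line 2 and 21.1, 21.6 and 20.4 TPM in control line 3. It was low in le5, at -0.70, while its ld9 libraries overlapped with the controls, at -0.09. Line ld9 lay 0.61 above line le5 on the relative scale.

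RNA splicing and processing had medians of -0.43 in le5 and -0.39 in ld9, with 5 of 7 members below -0.2 in both. EWSR1, an RNA-binding protein known for its fusions in Ewing sarcoma, was the most abundant. EWSR1 stood at 176, 176 and 167 TPM in ld9 and 169, 168 and 176 TPM in le5. Its libraries held 259, 233 and 226 TPM in m, 213, 203 and 203 TPM in control line 1, 205, 188 and 196 TPM in control line 2 and 252, 229 and 219 TPM in control line 3. The lowered lines did not overlap with the others, and the difference was -0.37 in le5 and -0.38 in ld9. SF3A1 encodes a subunit of the spliceosome's SF3A complex. SF3A1 stood at 97.6, 95.2 and 88.9 TPM in ld9 and 89.9, 100.3 and 105 TPM in le5. Its libraries held 143, 132 and 140.4 TPM in m, 133, 147 and 122 TPM in control line 1, 120.3, 102 and 120.3 TPM in control line 2 and 185, 164 and 141 TPM in control line 3. SF3A1 was at -0.52 and -0.61, and control line 2 held 1 value within the range of le5. PHF5A, another spliceosome subunit, TRMT2A, a tRNA methyltransferase, and PPIL2, a spliceosomal cyclophilin, lay between -0.51 and -0.39 in ld9. DGCR8, the RNA-binding partner of the microRNA-processing nuclease, was at -0.20 in le5 and -0.18 in ld9.

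Transcription and chromatin genes had medians of -0.34 in le5 and -0.30 in ld9, with 7 of 10 members below -0.2 in both. XBP1, a transcription factor of the unfolded protein response, was the most abundant and among the least lowered. XBP1 stood at 145, 155 and 147 TPM in ld9 and 158, 170.2 and 166 TPM in le5. Its libraries held 152, 163 and 159 TPM in m, 169, 160.2 and 174 TPM in control line 1, 187, 182 and 191 TPM in control line 2 and 111, 147 and 148 TPM in control line 3. The lowered lines overlapped with m and with control lines 1 and 3, and the difference was -0.04 in le5 and -0.21 in ld9. L3MBTL2, a Polycomb-group reader of histone marks, was at -0.46 and -0.60. L3MBTL2 stood at 15.7, 16.8 and 15.2 TPM in ld9 and 18.3, 14.7 and 18.9 TPM in le5. Its libraries held 23.7, 28.3 and 25.2 TPM in m, 24.1, 23.4 and 23.5 TPM in control line 1, 24.8, 23.9 and 21.9 TPM in control line 2 and 17.98, 24.1 and 24.4 TPM in control line 3. Control line 3 held 1 library inside the range of le5. EP300, a histone acetyltransferase, stood at -0.67 in le5 and -0.40 in ld9, with the libraries of the lines apart. SMARCB1, a core subunit of the SWI/SNF remodeller, stood at -0.52 and -0.45. MRTFA, a coactivator of serum response factor, TOB2, an antiproliferative adaptor, POLR2F, a subunit shared by the nuclear RNA polymerases, and HIRA, a histone chaperone, ranged from -0.37 to -0.29 in ld9. The Polycomb chromobox proteins CBX6 and CBX7 were at -0.08 and -0.17 in ld9 and -0.21 and -0.32 in le5. CBX6 stood at 40.98, 42.9 and 39.7 TPM in ld9 and 36.4, 35.6 and 38.2 TPM in le5. Its libraries held 47.3, 47.7 and 49.3 TPM in m, 53.6, 51.5 and 51.5 TPM in control line 1, 51.7, 44.2 and 45.03 TPM in control line 2 and 9.32, 47.5 and 47.1 TPM in control line 3. The libraries of ld9 lay between those of le5 and those of m and the control lines, except for library 1 of control line 3.

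Among genes of tumour suppression, DNA repair and signalling the medians were -0.34 in le5 and -0.39 in ld9, with 5 of 8 members below -0.2 in both. RANBP1, a regulator of the Ran GTPase cycle, was the most abundant. RANBP1 stood at 307, 310.02 and 293 TPM in ld9 and 291, 273 and 299 TPM in le5. Its libraries held 423, 449 and 434 TPM in m, 421, 421 and 426 TPM in control line 1, 412, 413 and 413 TPM in control line 2 and 402, 464 and 450.03 TPM in control line 3. The lowered lines lay well under the other 12 libraries, with differences of -0.62 in le5 and -0.57 in ld9. XRCC6, a DNA end-binding Ku subunit, was at -0.59 and -0.61, also without overlap. CHEK2, a checkpoint kinase, was at -0.50 in ld9, the adaptor CRKL at -0.44 and NF2, which encodes merlin, at -0.34. BID, a pro-apoptotic member of the BCL family, was at -0.29 in le5 and -0.19 in ld9, and YWHAH, a phosphoserine-binding adaptor, at -0.17 and -0.19. PPP6R2, a regulatory subunit of a protein phosphatase, was near 0 in both lines, at -0.03 and -0.04. PPP6R2 stood at 25.8, 23.1 and 24.2 TPM in ld9 and 21.5, 23.04 and 27.97 TPM in le5. Its libraries held 27.1, 25.6 and 28.8 TPM in m, 28.4, 28.3 and 31.1 TPM in control line 1, 27.01, 27.00 and 26.9 TPM in control line 2 and 8.97, 19.4 and 25.01 TPM in control line 3. The PPP6R2 libraries of le5 and ld9 overlapped with those of m and control line 3, and those of le5 also with control line 2.

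Protein turnover and folding genes were below -0.2 in both lines for 4 of 4 members, with medians of -0.37 and -0.41. ST13, a cochaperone of heat shock protein complexes, showed little spread within lines. ST13 stood at 237, 241 and 239 TPM in ld9 and 243, 231 and 232 TPM in le5. Its libraries held 292, 297 and 299 TPM in m, 285, 280.2 and 296 TPM in control line 1, 291, 285 and 291 TPM in control line 2 and 322, 348 and 330.3 TPM in control line 3. Both lowered lines lay under every other library, with differences of -0.42 in le5 and -0.43 in ld9. UFD1, a cofactor of the segregase VCP, had the lowest value of any member in le5, -0.80, against -0.54 in ld9. UFD1 stood at 78.5, 54.03 and 67.1 TPM in ld9 and 56.8, 52.96 and 52.05 TPM in le5. Its libraries held 116, 90.02 and 86.5 TPM in m, 90.4, 93.5 and 90.4 TPM in control line 1, 87.1, 72.4 and 75.97 TPM in control line 2 and 109, 111 and 91.9 TPM in control line 3. The libraries of ld9 spread so far that they overlapped with both le5 and control line 2. RBX1, the RING subunit of cullin ligases, was at -0.39 in ld9 and the deubiquitinase JOSD1 at -0.30.

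Cytoskeleton and nuclear envelope genes were likewise below -0.2 in both lines for 4 of 4 members, with medians of -0.42 in le5 and -0.37 in ld9. MYH9, the heavy chain of non-muscle myosin, was the most abundant. MYH9 stood at 134, 146 and 148 TPM in ld9 and 135, 153 and 151 TPM in le5. Its libraries held 185, 217 and 189 TPM in m, 192, 173 and 186 TPM in control line 1, 179.6, 185 and 181 TPM in control line 2 and 113, 158 and 156 TPM in control line 3. The differences were -0.26 in le5 and -0.32 in ld9, and only library 1 of control line 3 lay below them. SUN2, an inner nuclear membrane protein, stood at -0.53 in ld9 and TRIOBP, an actin-binding protein, at -0.33. TTLL12, of the tubulin tyrosine ligase family, was at -0.39 in le5 and -0.41 in ld9. TTLL12 stood at 92.2, 83.7 and 91.00 TPM in ld9 and 89.7, 83.2 and 93.02 TPM in le5. Its libraries held 136, 128 and 140.4 TPM in m, 124, 131 and 129.8 TPM in control line 1, 130.2, 119 and 126 TPM in control line 2 and 35.2, 129.9 and 134 TPM in control line 3. Library 1 of control line 3 was again the lowest of all 18.

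Membrane traffic had the smallest median in le5, -0.28, and -0.32 in ld9, with 5 of 8 members below -0.2 in both. ATP6V1E1, a subunit of the vacuolar proton pump, was the most abundant. ATP6V1E1 stood at 76.95, 79.05 and 79.02 TPM in ld9 and 77.04, 77.8 and 77.1 TPM in le5. Its libraries held 88.3, 93.6 and 94.8 TPM in m, 86.8, 87.97 and 89.1 TPM in control line 1, 93.9, 92.98 and 94.01 TPM in control line 2 and 173, 90.2 and 96.5 TPM in control line 3. It was at -0.40 in le5 and -0.41 in ld9 without overlap, and library 1 of control line 3 held the highest value of all. AP1B1, a subunit of the clathrin adaptor of the Golgi and endosomes, was the least lowered member. AP1B1 stood at 47.1, 43.6 and 45.7 TPM in ld9 and 44.9, 43.4 and 44.1 TPM in le5. Its libraries held 45.6, 44.5 and 47.5 TPM in m, 45.5, 46.7 and 46.8 TPM in control line 1, 48.3, 42.9 and 44.5 TPM in control line 2 and 23.6, 39.9 and 44.2 TPM in control line 3. Apart from library 1 of control line 3 every library lay between 39.9 and 48.3 TPM, and the difference was 0.01 in le5 and 0.03 in ld9. MICALL1, which acts in endosome recycling, was at -0.11 and -0.15 in le5 and ld9 and at -0.11 in m. MICALL1 stood at 17.7, 16.97 and 20.1 TPM in ld9 and 16.6, 17.1 and 21.6 TPM in le5. Its libraries held 18.1, 17.5 and 19.4 TPM in m, 21.03, 24.2 and 20.4 TPM in control line 1, 21.2, 19.8 and 23.7 TPM in control line 2 and 10.9, 15.6 and 17.5 TPM in control line 3. The MICALL1 libraries of le5 and ld9 overlapped with those of m and of the controls. PACSIN2, a membrane-bending protein, MTMR3, a phosphoinositide phosphatase, PI4KA, a phosphatidylinositol kinase, and KDELR3, a receptor that returns proteins to the endoplasmic reticulum, lay between -0.40 and -0.31 in ld9. SBF1, a myotubularin-related pseudophosphatase, was at -0.31 in ld9 and -0.09 in le5. The SBF1 libraries of le5 held 27.06 to 28.56 TPM, below all those of control lines 1 and 2. They overlapped with m and with control line 3. Library 1 of control line 3 held 6.47 TPM, which moves these differences up.

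The 6 members below -0.2 in neither line were AP1B1, DDX17, MICALL1, PPP6R2, TST and YWHAH, from 4 of the 8 groups. They were counted with library 1 of control line 3 in the reference. Without that library 47 members were below -0.2 in each line, so the set can change with the reference. DDX17, an RNA helicase of splicing and microRNA processing, was also near 0. DDX17 stood at 134, 136 and 138 TPM in ld9 and 133, 132 and 134 TPM in le5. Its libraries held 133, 143 and 148 TPM in m, 147, 139.8 and 142 TPM in control line 1, 141, 152 and 151 TPM in control line 2 and 87.2, 114 and 123 TPM in control line 3. DDX17 was at -0.04 in le5 and -0.04 in ld9. Its libraries in these lines lay below all those of control lines 1 and 2 and above all those of control line 3. They overlapped with those of m. The libraries of ld9 and le5 did not overlap for 8 members (15.1%), against 17% of all tested genes, so separation of these lines was no more frequent among the members. Line ld9 was higher for CBX6, EIF4ENIF1 and EP300 and lower for PES1, RBX1, SBF1, TXN2 and XBP1.

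The promoters of the 2 lowest and 2 highest members in ld9 that had an entry are shown because genes that move together, and those that do not, can be compared in their sequence. They are the 250 bases before the RefSeq start on the gene's strand, 5′ to 3′, from assembly GRCh38.p14, while the submitters' notes name GRCh37 for the expression tables. Of the low members, EIF3D lies at chr22:36529167-36529416 on the minus strand and TOMM22 at chr22:38681707-38681956 on the plus strand. Of the highest members, AP1B1 lies at chr22:29388571-29388820 and DDX17 at chr22:38506312-38506561, both on the minus strand. Capitals mark matches on either strand to the GC box GGGCGG, the CCAAT box CCAAT, the ETS motif CCGGAAG, the palindromic NRF1 core, and the TATA box TATAAA.
EIF3D: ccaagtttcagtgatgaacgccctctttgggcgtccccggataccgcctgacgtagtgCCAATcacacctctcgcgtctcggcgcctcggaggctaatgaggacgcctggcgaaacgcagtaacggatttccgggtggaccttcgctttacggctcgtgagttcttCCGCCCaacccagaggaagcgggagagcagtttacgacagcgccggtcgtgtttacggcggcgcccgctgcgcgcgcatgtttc
TOMM22: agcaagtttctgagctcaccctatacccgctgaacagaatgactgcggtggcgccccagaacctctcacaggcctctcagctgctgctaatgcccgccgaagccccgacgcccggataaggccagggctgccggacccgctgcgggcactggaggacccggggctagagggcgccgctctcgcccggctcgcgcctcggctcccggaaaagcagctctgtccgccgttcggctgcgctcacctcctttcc
AP1B1: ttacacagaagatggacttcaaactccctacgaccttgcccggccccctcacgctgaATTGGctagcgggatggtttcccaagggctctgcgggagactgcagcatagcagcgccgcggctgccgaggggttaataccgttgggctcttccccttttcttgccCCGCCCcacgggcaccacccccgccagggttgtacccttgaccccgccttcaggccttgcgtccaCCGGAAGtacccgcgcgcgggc
DDX17: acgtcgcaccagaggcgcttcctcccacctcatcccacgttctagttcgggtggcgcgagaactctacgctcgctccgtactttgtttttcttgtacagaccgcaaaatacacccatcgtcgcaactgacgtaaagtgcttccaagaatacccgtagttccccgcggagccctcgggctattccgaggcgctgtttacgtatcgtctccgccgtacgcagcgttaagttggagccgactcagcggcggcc
EIF3D and AP1B1 each held 1 GC box and 1 CCAAT box, AP1B1 also 1 ETS motif, and TOMM22 and DDX17 held none of the 5 motifs. The lowest and the highest members shown were thus found both with and without these letters. Promoters were matched for 44 of the 53 members. The GC box was in 32 of the 44 (72.7%), against 68.2% of promoters of genes with at least 1 TPM in C4-2B and 42.3% of all promoters. The CCAAT box was in 43.2%, against 35.7% and 33.0%, the ETS motif in 9.09%, against 16.9% and 8.82%, the NRF1 core in 2.27%, against 2.08% and 1.13%, and the TATA box in 2.27%, against 4.90% and 11.1%. Members with a GC box had a median relative difference of -0.34 over le5 and ld9, and those without it -0.40. With a CCAAT box the median was -0.41 and without it -0.34. These matches describe the letters of this window only.

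In ld9, other genes of chromosome 22 reached further in both directions than the members did. Among those with at least 10 TPM, SREBF2, a regulator of sterol synthesis, was lowest in ld9, at -0.92, and at -0.78 in le5. It held 43.5 ± 8.22 TPM in ld9, 46.8 ± 3.24 in le5 and 66.3 ± 2.35 in m, against 95.3 ± 4.56, 95.4 ± 2.35 and 52.7 ± 14.6 in control lines 1 to 3 (SD, n = 3 each). Control line 3 lay nearer to the lowered lines than control lines 1 and 2 did. XPNPEP3, an aminopeptidase, was at -0.85 in ld9 and -0.14 in le5, and PLA2G6, a phospholipase, at -0.81 and -0.80. At the other end, SEC14L2, a lipid-binding protein, was at 0.15 in ld9 and -0.08 in le5, MIRLET7BHG, a microRNA host gene, at 0.10 and -0.02, and ARVCF, a catenin, at 0.07 and -0.13. In le5 all 3 were thus below AP1B1.

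Partner subunits of the members' complexes that lie on other chromosomes were set beside them. Of 78 listed, 76 were tested, and their median relative difference was -0.04 in le5, -0.08 in ld9 and 0.00 in m, close to that of genes elsewhere. In both lines 7 of the 76 were below -0.2, a share near the 9.98% of all tested genes of other chromosomes. They were POLR2H, SMARCC1, SMARCD1, ARID1A, ARID2, XRCC5 and MYL9. The lowest was ARID2, a SWI/SNF subunit, at -0.42 in le5 and -0.35 in ld9, and the highest TOMM7 of the mitochondrial translocase, at 0.64 and 0.50. The 10 eIF3 partners had medians of -0.09 and -0.16, the 10 SWI/SNF partners -0.19 and -0.16, the 6 partners of TOMM22 0.03 and -0.03, and the 7 partners of ATP6V1E1 0.19 and 0.13. The members of the same complexes, EIF3D, EIF3L, SMARCB1, TOMM22 and ATP6V1E1, lay between -0.65 and -0.40 over the same lines.

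In RWPE-1, 1 control library was low in a similar way. RWPE-1 control 4 had a members' median of -0.45, while the other 4 controls lay between 0.06 and 0.13, the deletion libraries between 0.05 and 0.15, and the transfected libraries between 0.03 and 0.16. Control 4 is part of the reference of all these other libraries, which moves their values up. Its other chromosome 22 genes had a median of -0.43, its 12 windows ran from -0.50 to -0.33, and chromosome 22 was the lowest of its 23 chromosomes, the others lying between -0.07 and 0.07. All 53 members were under 0 in it and 47 were below -0.2, against 21.5% of all tested genes. It was the lowest of the 5 controls for 48 members, against 14.7% of all genes. Control 3 was the lowest for 3 members, against 24% of all genes, control 2 for 1, against 32.9%, control 5 for 1, against 16.1%, and control 1 for 0, against 11.3%. Of the other controls, number 3 was below -0.2 for 5 members and numbers 2 and 5 for 2 each, against 23.1%, 20.4% and 22.5% of all genes. Number 1 was below it for no member, against 17.7% of all genes. The members' TPM summed to 2986 in control 4 and to 3842 to 4228 in the other 4. In EIF3L the 5 controls held 387, 357, 505, 302 and 576 TPM, and in MYH9 372, 371, 368, 239 and 303 TPM. In EWSR1 they held 169, 173, 171, 134 and 173 TPM, and in DDX17 149.7, 130.1, 131, 106 and 164 TPM. Control 4, the fourth value of each, was the lowest every time.

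The order of the members in le5 and ld9 was not that of RWPE-1 control 4. Across the 53 members, the mean of le5 and ld9 and the value of RWPE-1 control 4 had a Pearson correlation of -0.04 and a Spearman correlation of -0.01, given as a description across genes, which are not independent. All 6 members below -0.2 in neither C4-2B line were below it in RWPE-1 control 4, as were 41 of the other 47. DDX17 was at -0.48 there, AP1B1 at -0.32, PPP6R2 at -0.23, TST at -0.27, YWHAH at -0.74 and MICALL1 at -0.79. KDELR3 was the lowest, at -0.97, and BID the nearest to 0, at -0.07. Control 4 is 1 library, so no spread between libraries can be given for it. Over the members its relative differences had a standard deviation of 0.182, within the 0.142 to 0.209 of the other RWPE-1 controls. Its order can therefore be scatter of 1 library, and the correlation cannot show that the cell lines differ in order. On the C4-2B side, the members spread as 0.655 in library 1 of control line 3, which is in the reference. The other 17 C4-2B libraries spread as 0.133 to 0.212. The part of that library in the C4-2B order was not tested.

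**Figure D5:**
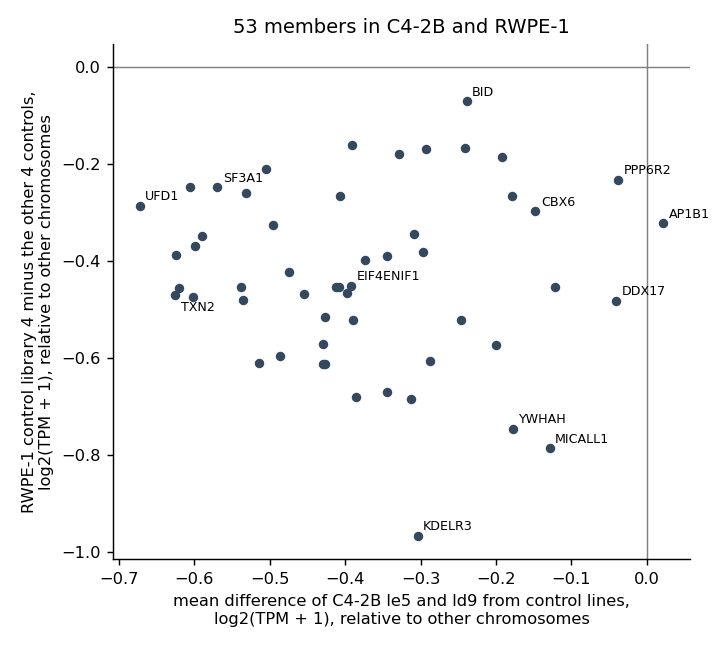
Each of the 53 members by its mean relative difference in C4-2B lines le5 and ld9 (x axis) and its relative difference in RWPE-1 control 4 from the other 4 controls (y axis), both on log2(TPM + 1). All 53 points lie below 0 on the y axis, and the cloud shows no common order, with a Pearson correlation of -0.04.

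Levels of the members were set across the cell lines as a reference only, since the tables of RWPE-1 and C4-2B were made separately. In control lines of C4-2B the members averaged from 9.13 TPM (CBX7) to 460 TPM (EIF3L), with a median of 50.8 TPM, and in RWPE-1 controls from 1.85 TPM (CBX7) to 425 TPM (EIF3L), with a median of 41.4 TPM. The ratio of C4-2B to RWPE-1 controls was above 1 for 43 of 53, with a median of 1.40, the lowest at 0.340 for MICALL1 and the highest at 4.93 for CBX7. The members were chosen by C4-2B TPM, which favours ratios above 1, and no share over all genes was set beside this count. The RWPE-1 control mean also includes the control library that was low across the members, which tends to raise ratios to that mean. Nothing is therefore read from this count. Sorted RWPE-1 cells with the eGFP plasmid differed from the RWPE-1 controls in both directions, with ratios above 1 for 29 members and below 1 for 24. The lowest ratio was 0.472 for EIF3L and the highest 2.25 for BID.

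In RWPE-1 cells deleted for the 7p15.2 region, 3 members were called higher than in controls, a share near that of all genes, and none lower. By limma on log2(TPM + 1), with p-values adjusted by Benjamini-Hochberg over 14186 genes, 3 of 53 were higher at an adjusted p under 0.05, against 6.46% of all genes, and 0 of 53 lower, against 3.86% (either way 10.3%). At an unadjusted p under 0.05 there were 16 of 53, against 27.9% of all genes. CBX6, the Polycomb chromobox gene, rose most. It held 12.7, 10.6, 13.6, 10.5 and 14.02 TPM in controls, and from 17.6 over a median of 19.8 to 21.2 TPM in deletion libraries. The groups did not overlap, and the log2 fold change was 0.63 ± 0.0880 (standard error), at a limma adjusted p of 0.000907. ATP6V1E1, the proton pump subunit, held 52.2, 50.03, 51.6, 44.3 and 52.9 TPM in controls and from 56.8 over 62.96 to 73.2 TPM in deletion libraries. These also did not overlap, at 0.35 ± 0.0656 (standard error) and a limma adjusted p of 0.00568. This call was lost with the replicate number as a block, a fit that also left out deletion libraries 6 and 7. There the limma adjusted p of ATP6V1E1 was 0.0685 and 2 of 53 members were called higher, against 1.46% of all genes. TTLL12 held 63.5, 53.96, 69.8, 47.9 and 71.5 TPM in controls and from 69.8 over 82.7 to 86.8 TPM in deletion libraries. Only the lowest deletion library reached into the controls, and the fold change was 0.42 ± 0.0968 (standard error) with a limma adjusted p of 0.0156. All 7 deletion libraries lay above all 5 controls for 2 members, against 4.24% of all genes.

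Over all 53 members the median log2 fold change was 0.16, against 0.05 for genes of other chromosomes. Control 4 was in the reference of that comparison. Without it the median was 0.08, against 0.06 elsewhere, and the same 3 members were called. Leaving out control 1, 3 or 5 raised the count to 6, 9 and 6 members, with RBX1 in all 3 of these sets. The shares of all genes called higher were then 5.3%, 8.03% and 6.19%. The members' median relative differences in the deletion libraries, 0.05 to 0.15, overlapped with those of the controls other than number 4, 0.06 to 0.13. Each control was set against the mean of the other 4 and each deletion library against the mean of the 5. These ranges therefore have unlike references, both with control 4 in them. Since nothing says that the libraries came from separate cultures, these p-values measure the spread between libraries.

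With the HOXA13 vector no member passed the test against eGFP. By limma, 0 of 53 had an adjusted p under 0.05, against 0.0135% of all 14814 genes, and 6 had an unadjusted p under 0.05, against 13.5%. Missing the threshold with 3 libraries a group does not show that the members did not differ. The lowest p-values were those of EWSR1, UFD1 and L3MBTL2. EWSR1 held 219.8, 219 and 219 TPM with eGFP and 235, 252 and 256 TPM with HOXA13, which did not overlap (0.18 ± 0.0546, standard error, limma adjusted p = 0.283). UFD1 held 90.2, 84.1 and 89.1 TPM with eGFP and 95.2, 109.9 and 103 TPM with HOXA13, also without overlap (0.22 ± 0.0736, limma adjusted p = 0.301). L3MBTL2 held 11.3, 11.4 and 12.8 TPM with eGFP and 14.6, 13.5 and 15.2 TPM with HOXA13, again without overlap (0.27 ± 0.0988, limma adjusted p = 0.332). The members' median fold change was 0.12, against 0.03 for genes of other chromosomes.

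Counts in the authors' deposited tables were taken at their own adjusted p under 0.05, over other sets of genes than the limma counts. The authors' deposited table for RWPE-1 deletion had 6 members higher, against 7.98% of 17985 genes, and 0 lower, against 9.37%. The authors' deposited table of HOXA13 had 4 members higher, against 2.43% of 12329 genes, and 0 lower, against 9.64%. POLR2F had no adjusted p in either table. In the authors' deposited table of the 3 C4-2B deletion lines together against the control lines, the median log2 fold change of the members was -0.27, a description of libraries that served to choose them.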

How the data were processed

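RNA-seq of 36 libraries was used, and the Hi-C data of the series were not used here. The deposited expression tables hold TPM for 60252 genes, a length-corrected share that the authors scaled to a fixed total. The submitters' processing notes name the build GRCh37 and RSEM 1.3.0, STAR 2.5.2b, DESeq2 1.14.1, Trimmomatic 0.35, featureCounts 1.5.1 and FastQC, without saying which made which table. Each of the authors' deposited comparison tables has columns for the log2 fold change and the adjusted p-value. Libraries were made with a stranded kit, per the labels' protocols, and whether reads were counted by strand is not given in the sources used here. Read depth cannot be had from TPM.

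The members and all lists (roles, partner subunits, markers) were chosen with earlier results of these data known. Values were analysed as log2(TPM + 1), which understates the change of low genes. Genes that reached 1 TPM in a number of samples equal to the smaller group were tested, within each table, with limma 3.58.1 in R 4.3.3 (lmFit, eBayes with trend, two-sided), with p-values adjusted by Benjamini-Hochberg over all genes and a threshold of 0.05. No test in C4-2B is reported, because its values chose the members. The procedure was tested on simulated data.

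Chromosomes and gene order came from RefSeq on GRCh38.p14, which placed 13104 of 14687 genes tested in C4-2B and 12866 of 14186 tested in RWPE-1. Genes with no chromosome there stayed in the tests and in the shares of all genes, and out of the medians of other chromosomes. The members with values in every library are the 6 lowest and 6 highest in ld9, the most abundant of each role, and those called or of lowest p in RWPE-1. Of other chromosome 22 genes with at least 10 TPM the 3 lowest and 3 highest were named, and of the partner subunits the lowest and highest. No library was a copy of another: the closest pair differed in 23993 genes. The alternatives were another pseudocount, no filter or a filter at 10 TPM, median-ratio scaling, a replicate block, other reference lines, TPM without mitochondrially encoded genes, and leaving out each library or line.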

Additional observations from a re-analysis of the deposited data

Results flagged for a closer look

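Groups of 4 to 10 samples were searched for a highest or lowest sample far from the others, by Dixon's test, over 50 groups of values. Chance flags about 1 in 20 groups. Of the 6 values found, 5 were the lowest of the 5 RWPE-1 controls and came from control 4. They were the members' median relative difference, -0.45 (log2), the same median over the other chromosome 22 genes, -0.43, and the TPM of EIF3D (115.9), AP1B1 (27.5) and EWSR1 (134). The other was TTLL12 in RWPE-1 deletion library 4, the lowest of the 7 at 69.8 TPM.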

How the results depend on the processing

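The median of the members in ld9 and le5 stayed below 0 under every alternative run. It moved by more than the spread between libraries with the lines m and le5 as reference for ld9 (-0.20), with m and ld9 as reference for le5 (-0.20), references that hold 1 lowered line each, and with control line 3 alone as reference (-0.32 for ld9 and -0.32 for le5), where the cause was not tested. The other 10 alternatives of each line gave -0.41 to -0.37 for ld9 and -0.42 to -0.39 for le5. In RWPE-1 deletion the count of members called ran from 3 to 9 when single libraries were left out, with 6, 9 and 6 without control 1, 3 and 5, while the share of all genes called higher went from 6.46% to 5.3%, 8.03% and 6.19%. The median of the members less that of other chromosomes ran from 0.01, without control 4, to 0.15 (log2). For HOXA13 against eGFP every alternative run called 0 members, in a design of 3 libraries a group.

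Replicate numbers did not pair the samples, with correlations of same-numbered RWPE-1 libraries from -0.18 to 0.14. With a replicate block, 2 members were called in RWPE-1 deletion, against 1.46% of all genes called higher, and 0 in HOXA13. The block fit of RWPE-1 deletion also left out deletion libraries 6 and 7, whose numbers no control carries. The effect of the block alone was not tested. ATP6V1E1 was not called under the block (limma adjusted p = 0.0685, against 0.00568 without it). The limits are that TPM gives no depth, that le5 and ld9 are single clones that may share a parent colony, that RWPE-1 control 4 is 1 library, and that DNA copy number was not measured.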

Other observations

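Another chromosome stood low in RWPE-1 deletion libraries. In 6 of the 7 the lowest chromosome median was that of chromosome 5, at -0.49 to -0.42 on the same relative scale. Library 4 was low on chromosome 5 too, at -0.44. Its lowest chromosome was 15, at -0.49, and its highest was 10, at 0.42. Chromosome 22 lay between 0.02 and 0.13 in these 7 libraries.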
